A study of Mus musculus with 22 samples.

Results

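The 10 genes described here, Axin2, Lef1, Tcf7, Sp5, Nkd1, Notum, Lgr5, Rnf43, Znrf3 and Cdx1, are known transcriptional targets of WNT signalling. They were taken by gene symbol from a list drawn up with earlier results of these data known, and each was found among the 18487 genes of the expression table. All 10 passed the filter on low values (10 or more in 2 or more of the 22 libraries), Lgr5 only through the 2 DZNep libraries. The RNA came from mouse E14 embryonic stem cells (ESCs), which the methods of the study place in medium with serum and LIF, the cytokine that keeps ESCs undifferentiated. Each of 10 compounds, Bromosporine, Chaetocin, CPTH2, DZNep, Garcinol, IOX1, MS023, OICR, UNC0379 and Valproate, was given to 2 libraries, and the other 2 libraries carried the label NC and served as the reference. The labels give no dose, time or vehicle and expand neither NC nor OICR, and all groups share 1 cell line with no stated genetic change. The labels do not say whether the 2 libraries of a group came from separate cultures, so the p-values below measure the spread between libraries, which may be technical.

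When a WNT ligand binds its Frizzled and LRP receptors, β-catenin is spared from degradation, enters the nucleus and joins TCF/LEF proteins at their DNA motif. Many of the genes it switches on encode parts of the pathway itself, which raise or limit the response of the cell to further ligand. In mouse ESCs WNT activity supports self-renewal, and in the embryo it drives the primitive streak and posterior mesoderm, where Sp5 and Cdx1 are among its targets. Among the compounds, Valproate inhibits histone deacetylases, Bromosporine binds bromodomains, and DZNep blocks S-adenosylhomocysteine hydrolase and thereby methyl transfer, including that by EZH2.

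The deposited values are normalized read counts, forced by the normalization to nearly the same distribution in every library, with a median of 409 in all 22 libraries and 1065 to 1707 genes listed at 0. Sequencing depth per library is unknown. Differences are given on the log2(value + 1) scale from 1 limma fit of all 22 libraries, with its standard error (SE) and a p-value adjusted by the Benjamini-Hochberg method over the 17275 genes tested. Called genes are those whose adjusted p lay under 0.05 and whose fold change exceeded 2 in either direction. Of the 100 pairs of a gene and a compound, 7 were called, 5 of them rises and 2 of them falls. Valproate accounted for 3 (Lef1, Sp5 and Cdx1) and DZNep for 4 (Lef1, Lgr5, Rnf43 and Cdx1). Because the RNA is from bulk cells, a change in the number of cells that express a gene and a change in RNA per cell cannot be told apart.

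Divided by exon length, the genes lay far apart in the NC libraries. The mean per kilobase of exon was 825 for Notum, 794 for Cdx1 and 573 for Tcf7, and neighbours in this order overlapped between libraries. It was 182 for Sp5, 143 for Axin2, 57.8 for Znrf3 and 11.2 for Nkd1, with no overlap between neighbours. Rnf43 at 4.57 and Lef1 at 4.04 per kilobase overlapped, and Lgr5 was listed at 0 in both libraries.

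Upstream sequence is shown for Sp5 and Lef1, which rose with Valproate, and for Axin2, the most widely used readout of the pathway. Each run holds the 250 bases before a transcription start, taken from RefSeq on GRCm38.p6 and read 5′ to 3′ on the strand of the gene (the forward strand for all of them). Capitals mark CTTTGAT, the core TCF/LEF motif, or CTTTGTT, a form that SOX factors also bind, which appears as AACAAAG when it lies on the reverse strand.
Sp5, chr2:70474673-70474922: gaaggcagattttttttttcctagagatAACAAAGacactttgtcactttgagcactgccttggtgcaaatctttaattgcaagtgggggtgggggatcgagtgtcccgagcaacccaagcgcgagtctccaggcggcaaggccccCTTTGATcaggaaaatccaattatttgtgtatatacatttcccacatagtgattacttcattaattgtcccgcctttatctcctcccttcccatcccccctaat
Lef1, chr3:131110047-131110296: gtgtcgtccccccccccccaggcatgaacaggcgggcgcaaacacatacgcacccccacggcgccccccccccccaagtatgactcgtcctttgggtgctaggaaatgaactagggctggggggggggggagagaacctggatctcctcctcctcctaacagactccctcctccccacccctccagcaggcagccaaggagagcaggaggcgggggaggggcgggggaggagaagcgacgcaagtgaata
Axin2, chr11:108920099-108920348: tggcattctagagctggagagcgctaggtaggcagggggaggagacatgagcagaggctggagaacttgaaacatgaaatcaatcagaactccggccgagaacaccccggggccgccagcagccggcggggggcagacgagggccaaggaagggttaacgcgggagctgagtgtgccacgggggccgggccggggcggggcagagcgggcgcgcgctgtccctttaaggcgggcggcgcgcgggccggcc
Sp5 held CTTTGAT at 104 to 98 bases before its start and CTTTGTT, on the reverse strand, at 222 to 216 bases before it. Of 32851 windows of this length, 3.21% held CTTTGAT and 5.03% held CTTTGTT on either strand. RefSeq windows matched 6 of the 10 genes (Sp5, Lef1, Axin2, Tcf7, Nkd1 and Rnf43), 11 windows in all, and neither motif was found in the windows other than that of Sp5. A missing match says only that these letters are not in this window. Notum, Lgr5, Znrf3 and Cdx1 have no window here.

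Sp5 encodes a zinc finger factor of the SP family that acts downstream of β-catenin (ENSMUSG00000075304, chr2:70474923-70477729, + strand, mm10). Its values were 376 and 390 in the NC libraries and 2216 and 2141 in the Valproate libraries. Both Valproate libraries lay above each of the other 20 libraries. Sp5 rose by 2.50 on the log2 scale with Valproate (SE 0.32, limma adjusted p = 0.000415), a 5.68-fold change. The next groups in order were Chaetocin with 1314 and 1137, UNC0379 with 1146 and 889, and Garcinol with 828 and 780. These 3 groups lay above both NC libraries, by 1.67, 1.40 and 1.07 on the log2 scale, but none was called (limma adjusted p = 0.303, 0.399 and 0.967). In a fit with the replicate number as a term, Chaetocin was called (adjusted p = 0.0263), and UNC0379 and Garcinol were not. In the order of group means, Valproate was separate from Chaetocin, UNC0379 from Garcinol, and Garcinol from IOX1, whereas Chaetocin overlapped UNC0379, and each neighbouring pair from IOX1 down to NC overlapped. IOX1 (623 and 568), CPTH2 (592 and 488) and OICR (526 and 419) nevertheless lay above both NC libraries. Their log2 changes were 0.63, 0.49 and 0.29, and none was called. With MS023 the libraries gave 573 and 229, on either side of NC, so the sign of the difference depended on 1 library (log2 change -0.08, -0.74 without MS023 replicate 1 and 0.58 without MS023 replicate 2).

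Lef1 encodes a TCF/LEF factor that carries β-catenin to DNA (ENSMUSG00000027985, chr3:131110471-131224356, + strand). The NC libraries read 29 and 42, those of Valproate 350 and 194, and those of DZNep 113 and 71. Valproate was the highest group, and its libraries did not overlap those of DZNep, which lay above NC. Lef1 rose 7.28-fold with Valproate (log2 change 2.86, SE 0.39, limma adjusted p = 0.00066) and 2.52-fold with DZNep (1.33, SE 0.39, adjusted p = 0.0251). The DZNep call was lost without NC replicate 1 (adjusted p = 0.19) and without DZNep replicate 1 (0.162), and also with the mean of the other 9 compounds as reference, where the change fell below the fold threshold (log2 change 0.92). When each compound was fitted with NC alone, both calls were lost (adjusted p = 0.14 for DZNep and 0.0805 for Valproate). Bromosporine, with 81 and 51, gave a log2 change of 0.86 that was not called, and the lowest group was MS023 with 16 and 30.

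Tcf7, which encodes TCF1, another member of the same factor family (ENSMUSG00000000782, chr11:52252371-52283014, - strand), varied little. Its NC libraries read 1575 and 1431, and its group means spanned 1.37-fold over the 11 groups, against 11.8-fold for Lef1. The log2 changes ran from -0.30 with DZNep to 0.16 with Valproate, and none was called (lowest limma adjusted p = 0.314). The lowest library was DZNep replicate 2 at 937, while DZNep replicate 1 at 1595 lay above both NC libraries.

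Cdx1 encodes a caudal-type homeobox factor that patterns the posterior embryo (ENSMUSG00000024619). The NC libraries read 1773 and 1006, against 37 and 116 for DZNep, 145 and 167 for Valproate, and 133 and 202 for Bromosporine. Both libraries of each of these 3 groups lay below both NC libraries, although the NC libraries themselves differed widely (mean 1389.5 ± 542, SD, n = 2). Cdx1 fell with DZNep (log2 change -4.33, SE 0.87, limma adjusted p = 0.00299) and with Valproate (-3.09, SE 0.87, adjusted p = 0.038). The log2 change with Bromosporine was -3.02, of about the same size as that with Valproate, but was not called (adjusted p = 0.0645). In a fit with the replicate number as a term, the Bromosporine change was called (limma adjusted p = 0.0025). The Valproate call was lost in each of the 4 fits that left out 1 NC or Valproate library (adjusted p up to 0.205) and with the mean of the other 9 compounds as reference (log2 change -1.32, adjusted p = 0.175), and the DZNep call was kept in each of its 10 alternatives. The fitted change was negative with 10 of 10 compounds, which share the NC libraries, and the smallest was -0.37 with UNC0379. IOX1 with 118 and 409 and OICR with 246 and 470 also lay below NC (log2 changes -2.60 and -1.97, adjusted p = 0.24 and 0.434). With the replicate number as a term, IOX1 was called (limma adjusted p = 0.0257) and OICR was not. In the 10 compound groups the library numbered 2 was the higher, and in NC it was the lower. Taken between libraries of the same number, the log2 change with DZNep was -5.54 for number 1 and -3.11 for number 2. For number 1 it was negative with every compound. For number 2 it was positive with Chaetocin (0.33), CPTH2 (0.53), Garcinol (0.26), MS023 (0.19) and UNC0379 (0.54), and negative with the others. For the former compounds the fitted sign thus depended on NC replicate 1, the highest library of Cdx1.

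**Figure D1:**
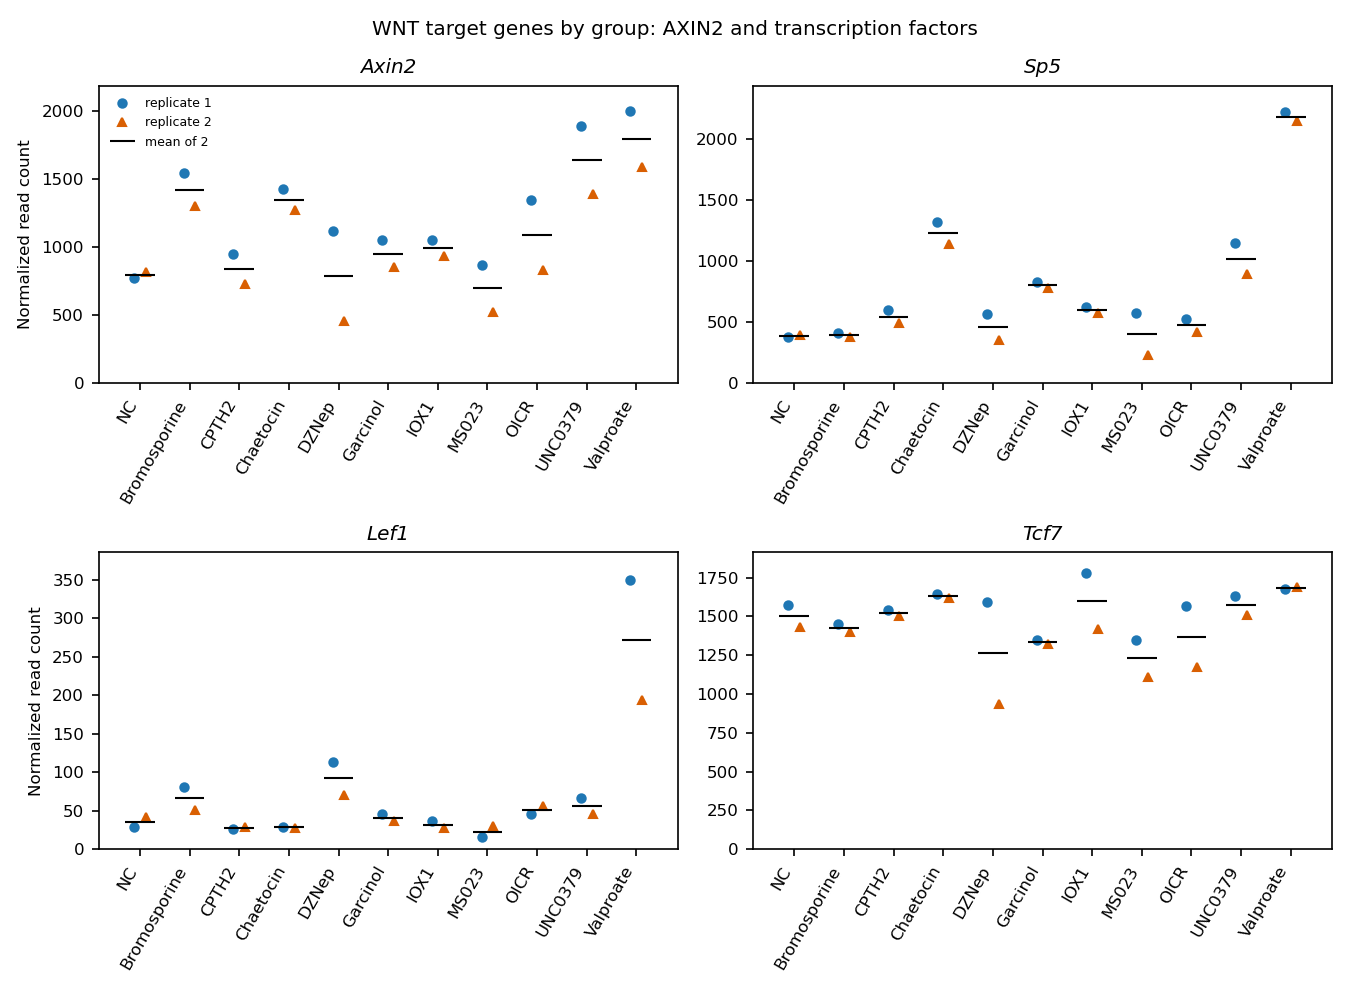
Normalized read counts of Axin2, Sp5, Lef1 and Tcf7 (y axes) in each group (x axes), with circles for replicate 1, triangles for replicate 2 and a bar for the mean of 2. Valproate stands highest for Sp5 (2216 and 2141, against 376 and 390 in NC) and for Lef1 (350 and 194, against 29 and 42), whereas the group means of Tcf7 span 1.37-fold.

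Axin2 encodes a scaffold of the complex that degrades β-catenin and acts as a negative feedback target (ENSMUSG00000000142, chr11:108920349-108950783, + strand). The NC libraries gave 766 and 814, Valproate 1999 and 1588, UNC0379 1884 and 1387, Bromosporine 1538 and 1300, and Chaetocin 1420 and 1270. These 4 compound groups lay above NC with no overlap, but each overlapped its neighbour in that order. Garcinol (1047 and 850), IOX1 (1046 and 930) and OICR (1339 and 827) also lay above both NC libraries. None was called: with Valproate the log2 change was 1.17 (SE 0.36, limma adjusted p = 0.0564), a 2.25-fold difference, and with UNC0379 it was 1.03 (adjusted p = 0.698). In a fit with the replicate number as a term, only the Valproate change was called (adjusted p = 0.00376). Valproate and Bromosporine differed at Axin2 by a log2 difference of 0.33 (95% interval -0.45 to 1.11, adjusted p = 0.584). With DZNep the libraries lay on either side of NC, at 1117 and 454.

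Nkd1 encodes a cytoplasmic antagonist that binds Dishevelled (ENSMUSG00000031661, chr8:88521354-88594884, + strand). NC gave 45 and 57, DZNep 15 and 18, and Valproate 68 and 77. DZNep held the lowest pair of libraries and Valproate the highest, and neither pair overlapped NC. The changes were not called against NC (log2 change -1.57 with DZNep, limma adjusted p = 0.0598, and 0.51 with Valproate). In a fit with the replicate number as a term, the DZNep change was called (adjusted p = 0.00345). The sign was negative with 9 of the 10 compounds, Valproate being the exception, but all of these contrasts share the same NC libraries.

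Lgr5 encodes a receptor for R-spondins, which strengthen WNT signalling, and marks stem cells of the gut and other tissues (ENSMUSG00000020140, chr10:115450311-115587780, - strand). The DZNep libraries read 74 and 68. Among the other 20 libraries it was listed at 0 in 15 and did not exceed 2 in the rest. Lgr5 rose with DZNep in the limma fit (log2 change 6.17, SE 0.93, adjusted p = 0.000426), and no fold change is given because NC was listed at 0. The gene passed the filter only through the DZNep libraries, so it had to differ between groups, and without either of them it was not tested. A larger pseudocount of 10 gave a log2 change of 3.02. The call was kept in the 8 alternatives in which the gene was tested. All of them keep both DZNep libraries, through which alone the gene passed the filter, so they are no independent support.

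Rnf43 and Znrf3 encode membrane ubiquitin ligases that remove Frizzled receptors, the step that LGR5 and R-spondins counter. Rnf43 (ENSMUSG00000034177, chr11:87662722-87735539, + strand) gave 27 and 33 in NC, 104 and 78 with DZNep, 80 and 63 with Valproate, and 116 and 52 with Chaetocin. All of these groups lay above NC, and the lowest group was Bromosporine with 22 and 19. It rose 2.95-fold with DZNep (log2 change 1.56, SE 0.53, limma adjusted p = 0.0489), close to the threshold. That call was lost without any 1 of the NC or DZNep libraries (log2 changes from 1.36 to 1.77). It was also lost with no filter on low values (limma adjusted p = 0.0512) and when DZNep was fitted with NC alone (0.0888). With the mean of the other 9 compounds as reference, the log2 change was 0.93, under the fold threshold (adjusted p = 0.0899). The log2 changes of 1.22 with Valproate and 1.35 with Chaetocin were not called (adjusted p = 0.178 and 0.803). The fitted change was positive with 9 of 10 compounds, in contrasts that again share the NC libraries.

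Znrf3 (ENSMUSG00000041961, chr11:5276324-5444847, - strand) was read at 400 and 513 in NC. Its changes ran from -0.37 with Garcinol (317 and 389) to 0.28 with DZNep (504 and 598), and none was called (lowest limma adjusted p = 0.504). Each pair of neighbouring groups overlapped, and the group means spanned 1.56-fold.

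Notum encodes a secreted enzyme that inactivates WNT ligands by removing their lipid (ENSMUSG00000042988, chr11:120653788-120661175, - strand). The libraries read 1541 and 2432 for NC, 2961 and 3966 for IOX1, 899 and 1079 for DZNep, and 923 and 803 for MS023. IOX1 lay above NC with no overlap, and DZNep and MS023 lay below it with no overlap. None of these was called (log2 changes 0.82, -0.97 and -1.17, limma adjusted p = 0.422, 0.0948 and 0.165). In a fit with the replicate number as a term, MS023 was called (adjusted p = 0.00647), and IOX1 and DZNep stayed under the fold threshold. Of the 31-base words in its longest transcript, matched on either strand, 34.1% occur in transcripts of other genes. Notum overlaps Myadml2os and Notumos on the opposite strand, and words shared with these are counted in that share. Axin2 and Lef1 also overlap a gene on the opposite strand. Whether counting used strand is not stated, so reads of such pairs cannot be told apart.

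**Figure D2:**
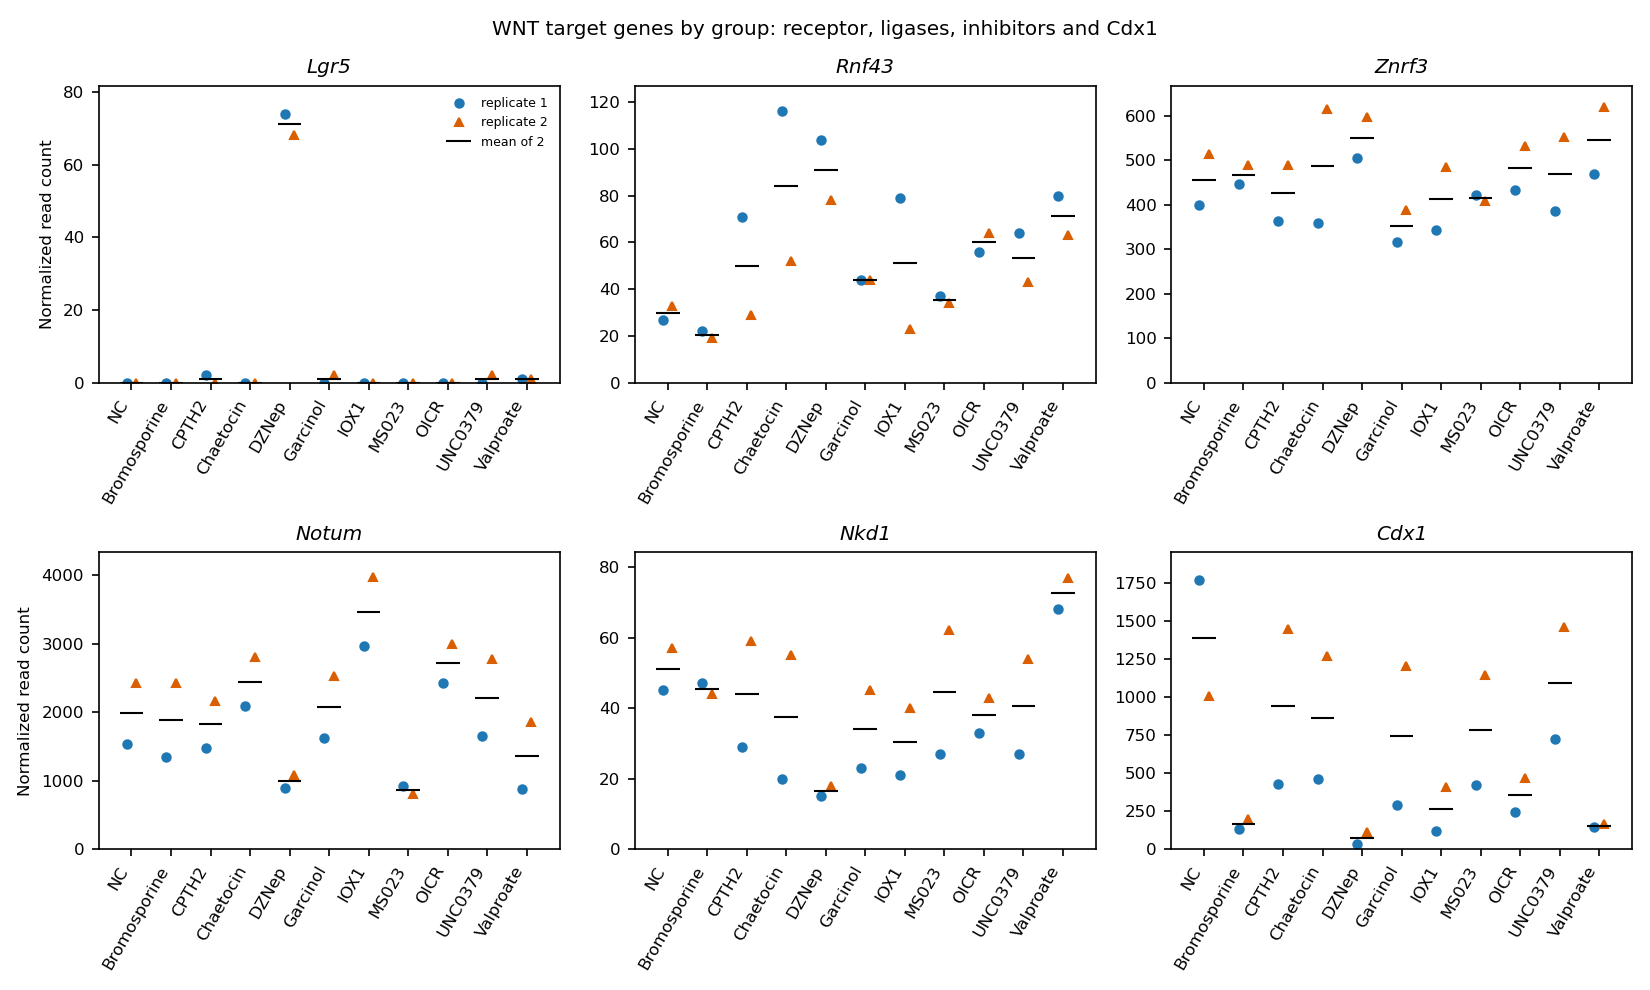
Normalized read counts of Lgr5, Rnf43, Znrf3, Notum, Nkd1 and Cdx1 (y axes) in each group (x axes), with circles for replicate 1, triangles for replicate 2 and a bar for the mean of 2. Lgr5 reads 74 and 68 with DZNep and at most 2 elsewhere, and Cdx1 is lowest with DZNep (37 and 116).

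Set against all genes, the members' calls came from the compounds that changed many genes. With DZNep 4 of 10 members were called, against 11.4% of all genes tested. Among them is Lgr5, whose outcome with DZNep the filter fixed, and without it the count was 3 of 9. With Valproate 3 of 10 were called, against 5.28%. With Bromosporine 0 of 10 were called, against 3.34%, and 3 (Axin2, Lef1 and Cdx1) had an unadjusted limma p under 0.05. MS023 also gave 0, against 0.973%, as did OICR, against 0.388%, and IOX1, against 0.116%, each with 1 member at an unadjusted limma p under 0.05 (Notum, Cdx1 and Cdx1). For Chaetocin (0 of 10, against 0.0174%), Garcinol (0, against 0.00579%), CPTH2 (0, against 0.00579%) and UNC0379 (0, against 0%) these numbers were 2, 1, 0 and 2. In those contrasts 815, 625, 163 and 1051 of the 17275 genes tested had an unadjusted limma p under 0.05. At the same limit there were 3281 genes with Bromosporine, 2584 with MS023, 1843 with OICR and 2148 with IOX1. The DZNep and Valproate contrasts share the NC libraries, and so Lef1 and Cdx1, called in both, were compared with the same 2 values. The median log2 change of the 10 members was 0.75 with Valproate, 0.40 with UNC0379 and 0.03 with DZNep, where the median over all genes was -0.02, -0.00 and -0.04. The members' median was -0.26 with MS023, -0.04 with Bromosporine and CPTH2, and from 0.04 with IOX1 to 0.19 with OICR for the rest. These medians were not tested.

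**Figure D3:**
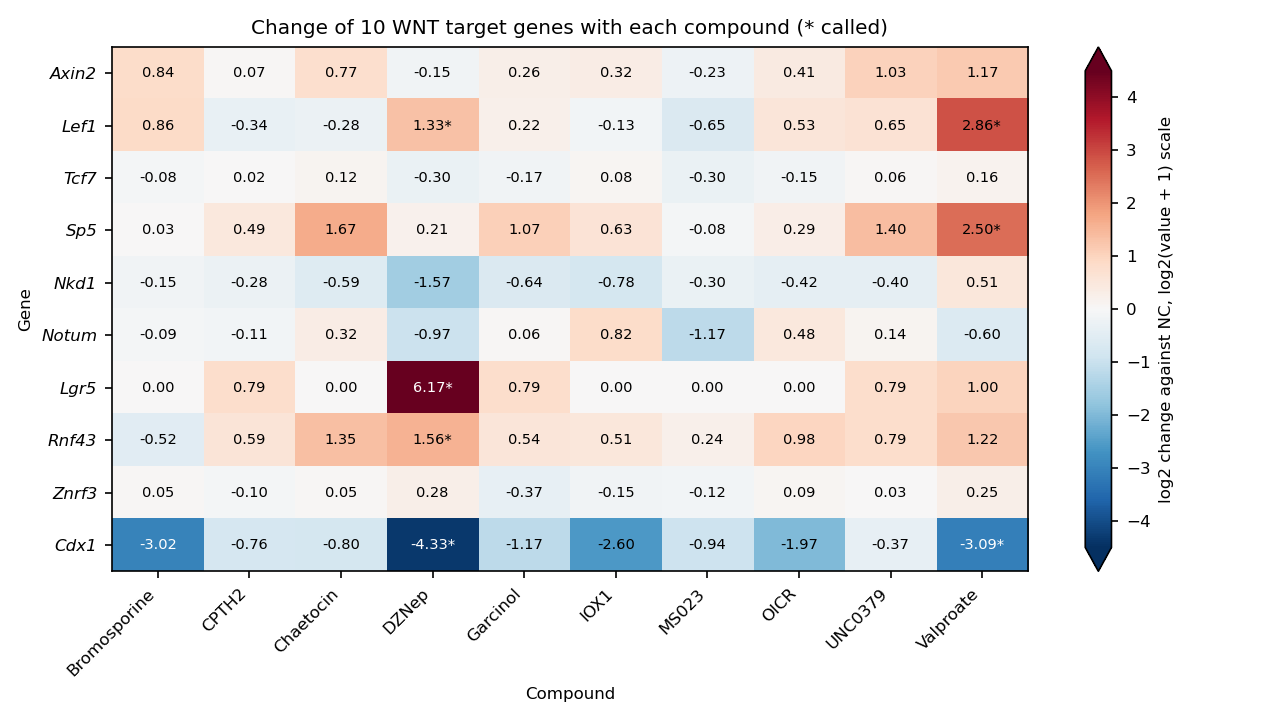
Heat map of the log2 change against NC, on the log2(value + 1) scale, for the 10 genes (rows) and 10 compounds (columns), with an asterisk on each of the 7 called pairs. Red is higher and blue lower than NC, and the row of Cdx1 is blue throughout, from -0.37 with UNC0379 to -4.33 with DZNep. Between libraries of number 2 alone, the change of Cdx1 is above 0 with Chaetocin, CPTH2, Garcinol, MS023 and UNC0379.

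A moderated F-test over the 10 contrasts asked whether a gene differed among the groups at all. At an adjusted limma p under 0.05, 5 of the 10 passed, against 29.7% of all genes, or 4 of 9 without Lgr5, which the filter admitted only through DZNep. These were Sp5 (adjusted p = 0.000668), Lef1 (0.000748), Lgr5 (0.00485), Cdx1 (0.021) and Notum (0.0259). Notum thus passed over all groups although no single compound was called. Axin2 (0.0549), Rnf43 (0.116), Nkd1 (0.306), Tcf7 (0.475) and Znrf3 (0.661) did not pass.

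DZNep, Valproate and Bromosporine, the compounds with the most calls over all genes, were then compared directly, because a call with 1 compound and not with another does not show that they differ. No doses or times are given, so these differences are between treatments as applied. DZNep and Valproate differed at 5 of the 10 genes, against 10.8% of all genes, or at 4 of 9 without Lgr5, which was tested only because of its DZNep values. Sp5 was lower with DZNep by a log2 difference of -2.30 (95% interval -2.99 to -1.60, limma adjusted p = 0.000311), as were Nkd1 (-2.07, adjusted p = 0.0177), Lef1 (-1.53, adjusted p = 0.0136) and Axin2 (-1.32, adjusted p = 0.0185). Lgr5 was higher with DZNep (5.17, adjusted p = 0.00151). Sp5 kept its call in all 4 fits that left out 1 library of the pair. Lgr5 was called in the 2 in which it could be tested. These keep both DZNep libraries, through which alone it passed the filter, so they are no support. Axin2 and Lef1 were called in 2 of the 4 (not without DZNep replicate 2 or Valproate replicate 1), and Nkd1 was called in 0 of the 4, so that without DZNep replicate 2 only 1 of the 10 genes remained called. For Cdx1, which fell with both, the difference was -1.23 with an interval of -3.11 to 0.65.

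Against Bromosporine, Valproate gave higher levels of Sp5 (log2 difference 2.47, limma adjusted p = 0.000322), Lef1 (95% interval of the difference 1.15 to 2.85, adjusted p = 0.00472) and Rnf43 (1.75, adjusted p = 0.0418), 3 of 10 where 8.64% of all genes were called. DZNep gave higher levels of Lgr5 (6.17, adjusted p = 0.000326) and Rnf43 (2.09, adjusted p = 0.0103) than Bromosporine, 2 of 10 where 14.8% were called, or 1 of 9 without Lgr5. The size of the Lgr5 difference depends on the pseudocount, since both Bromosporine libraries were listed at 0. Without any 1 of the libraries Rnf43 was no longer called between Valproate and Bromosporine, and between DZNep and Bromosporine it was not called without Bromosporine replicate 2 or DZNep replicate 1. Lef1 between Valproate and Bromosporine was not called without Bromosporine replicate 2 or Valproate replicate 1. Cdx1 differed by -0.07 between Valproate and Bromosporine, with an interval of -1.96 to 1.81, too wide to tell whether the treatments act alike on it.

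**Figure D4:**
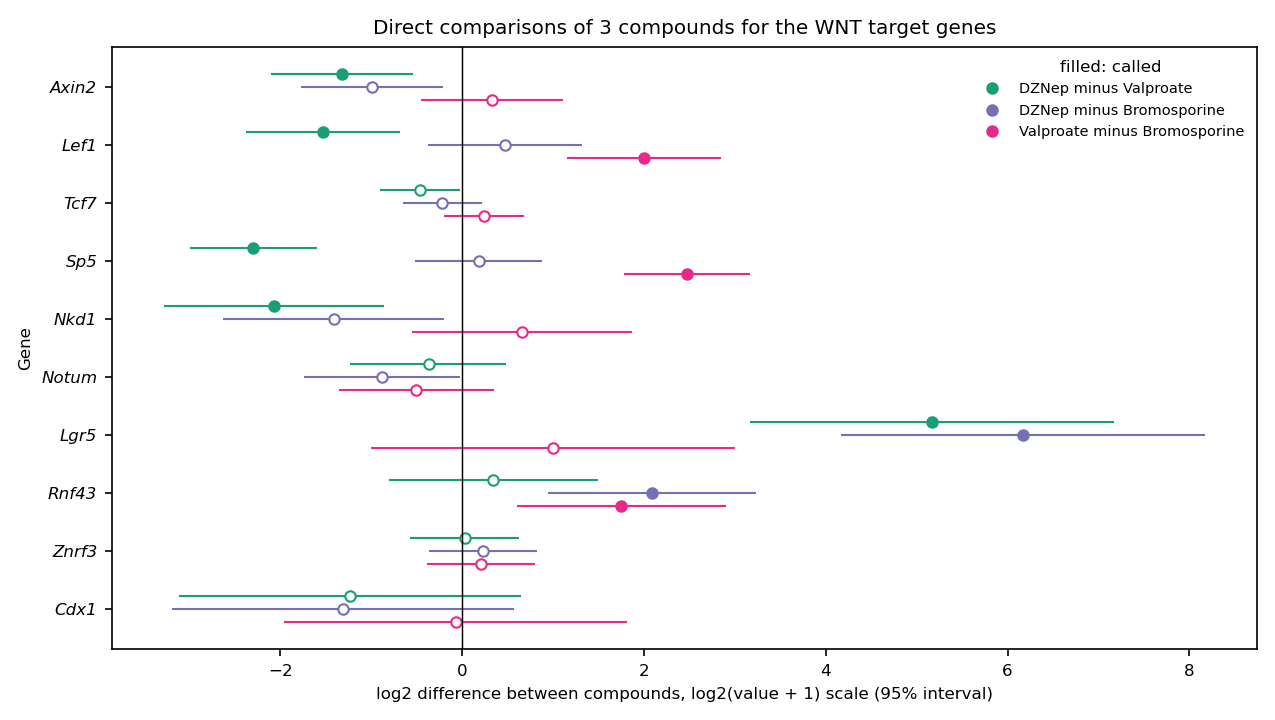
Log2 differences with 95% intervals (x axis, log2(value + 1) scale) between DZNep, Valproate and Bromosporine for each of the 10 genes (y axis), filled where called. Sp5 is higher with Valproate than with either other compound (by 2.47 against Bromosporine), and each interval of Cdx1 and of Znrf3 includes 0.

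Over the 11 group means the members did not follow 1 pattern. Pearson's correlation of log2 group means was 0.743 between Axin2 and Sp5, 0.698 between Axin2 and Tcf7, 0.531 between Lef1 and Sp5, and -0.635 between Lef1 and Cdx1. These are descriptions over 11 points in which 1 group can weigh heavily. Among other genes with a mean value of at least 100, the closest to Sp5 were Pgap1 (0.949), Pdzrn3 (0.945) and Sept8 (0.923). Lef1 was most like Impdh1 (0.97), Ncdn (0.958) and Pdcd11 (0.956), and Cdx1 was most like Yars (0.943), Ddx19b (0.939) and Adgrd1 (0.938). For Lgr5, where DZNep sets the pattern, they were Limch1 (0.971), Col2a1 (0.968) and Acad11 (0.967), and for Rnf43 Hsf3 (0.919), Tmem63a (0.893) and Tmem43 (0.876).

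Of 95 further genes of the pathway that were listed by role, 88 were in the table and 81 were tested. With DZNep 15 of them were called (18.5%, 9 higher and 6 lower), where 11.4% of all genes were. With Valproate 5 were called (6.17%, 3 higher and 2 lower), where 5.28% of all genes were, and with Bromosporine 4 (4.94%, 3 higher and 1 lower), where 3.34% were. MS023 and OICR gave 1 call each (1.23%), where 0.973% and 0.388% of all genes were called. The shares of Valproate and Bromosporine lie near those over all genes, and those of MS023 and OICR rest on 1 gene each. Whether the share of DZNep differs from that over all genes was not tested. No listed gene was called with the other 5 compounds. Among these 26 calls, 3 were kept in every alternative, the rises of Wnt6 and Wnt10a and the fall of Fzd7, all with DZNep, and 23 were lost in at least 1.

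Among 15 tested ligands, Wnt6 went from 33 and 30 in NC to 269 and 273 with DZNep, and rose by 3.07 on the log2 scale (limma adjusted p = 2.37e-05). Wnt10a went from 1 and 6 to 120 and 96 with DZNep (4.86, adjusted p = 0.000157). DZNep also called Wnt3 at low values (4 and 4 against 14 and 28), a call lost without any 1 library. Wnt7b rose with Valproate, from 101 and 89 to 346 and 340 (1.84, adjusted p = 0.0413), and was likewise lost without any 1 library.

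Of 17 receptors, Fzd7, a Frizzled that ESCs express strongly, fell with both compounds. The libraries read 1510 and 899 for NC, 316 and 243 for DZNep, and 447 and 278 for Valproate (log2 changes -2.07 and -1.72, limma adjusted p = 0.000118 and 0.00115). Fzd4 fell with DZNep, from 426 and 333 to 136 and 154 (-1.37, adjusted p = 0.000416). Both are receptors that RNF43 and ZNRF3 can remove, but these are RNA values and protein was not measured.

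Inside the cell, Apc2, a relative of the β-catenin degradation scaffold APC, was read at 18 and 38 in NC. It was called higher with Bromosporine (114 and 91), DZNep (111 and 83) and OICR (118 and 116), with log2 changes of 1.92, 1.83 and 2.12 (limma adjusted p = 0.0124, 0.0041 and 0.0288). All of these calls were lost without NC replicate 1 (adjusted p = 0.147, 0.0652 and 0.319), and those of Bromosporine and OICR also without replicate 1 of the compound (0.102 and 0.154), that of OICR also without its replicate 2 (0.202). It was the only call among 14 transduction genes, and among 11 nuclear genes the only call was Pygo1, a β-catenin co-activator, lower with DZNep (74 and 130 against 255 and 236, adjusted p = 0.0269), which was lost without any 1 of 3 libraries (NC replicate 1, NC replicate 2 or DZNep replicate 1).

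Of 13 antagonists tested, Sfrp2, a secreted Frizzled-related inhibitor, was lower with DZNep (46 and 105) and MS023 (41 and 76) than in NC (340 and 253), by log2 changes of -2.06 and -2.37 (limma adjusted p = 0.00278 and 0.0109). The MS023 call was lost without NC replicate 1 (0.113) and without MS023 replicate 1 (0.115). Nkd2, the paralog of Nkd1, was lower with DZNep (4 and 8 against 32 and 30, -2.25, adjusted p = 0.000637). Draxin was higher with DZNep (190 and 203 against 48 and 101, 1.48, adjusted p = 0.0107), a call lost without NC replicate 1. Sfrp1 was lower with Valproate (1601 and 1196 against 3362 and 2608, -1.10, adjusted p = 0.0467), a call lost without any 1 library.

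The 11 further targets did not move as a block either. Sp8, the relative of Sp5, was higher with Bromosporine (163 and 131 against 40 and 50) and Valproate (104 and 118) and lower with DZNep (21 and 22), with log2 changes of 1.69, 1.29 and -1.02 (limma adjusted p = 0.00254, 0.00698 and 0.0118). Its Valproate call was lost without NC replicate 1 (adjusted p = 0.0704), and its DZNep call without NC replicate 2 or DZNep replicate 1, where the change fell below the fold threshold. Bmp4, a signalling ligand, was higher with Bromosporine (69 and 99 against 8 and 9), DZNep (76 and 38) and Valproate (59 and 29), and the Valproate call was lost without NC replicate 1 or Valproate replicate 1. Myc, Ascl2 and Tbx3 were called higher with DZNep, at 230 and 161 against 4 and 19, 193 and 148 against 48 and 41, and 11776 and 10616 against 5662 and 4970. The Myc call was lost without NC replicate 1 (adjusted p = 0.0772), and that of Tbx3 without NC replicate 2 (log2 change 0.98). Ccnd1, encoding cyclin D1, was lower with Bromosporine (1177 and 1931 against 3394 and 4050, -1.30, adjusted p = 0.0194), and that call was lost without NC replicate 1, NC replicate 2 or Bromosporine replicate 1.

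To check the ESC label, 10 pluripotency markers were examined, each above 0 in every library. Their summed value was 265522 and 254420 in NC and 223258 to 326349 over the 22 libraries. They went both ways with DZNep, where Nanog read 92251 and 123367 (44793 and 59405 in NC) and Tdgf1 11541 and 8477 (25722 and 15640). The only call was Zfp42, higher with DZNep (16469 and 20763 in NC, 49540 and 33822). Its log2 change of 1.15 fell below the fold threshold without NC replicate 1 (0.98) or DZNep replicate 1 (0.87). Markers of other cell types were present too. The summed value of the 4 trophoblast markers in the table was 140 and 140 in NC, 421 and 288 with DZNep and 340 and 309 with Bromosporine. Much of it was Eomes, also listed as a primitive streak marker (129 and 119 in NC, 356 and 199 with DZNep, 331 and 298 with Bromosporine). Cdx2 read 2 and 8 in NC and 9 and 11 with DZNep, and Gata3 0 and 9 against 44 and 54. Hand1 read 9 and 4 in NC, 12 and 24 with DZNep and 0 and 0 with Bromosporine. The summed value of 6 neural markers was 3444 and 5114 in NC and 4821 and 5418 with DZNep. The neural markers went both ways with DZNep: Neurod1 was called higher, and Sox1 (742 and 514 in NC, 225 and 204 with DZNep) and Nes (1555 and 1613, 715 and 543) were called lower, while Tubb3, which carries much of the sum, was not called (947 and 2771, 3331 and 4333). Primitive streak markers, several of which are WNT targets themselves, summed to 1178 and 1025 in NC, 1032 and 1273 with DZNep and 911 and 1133 with Valproate. Most of this was Gsc (1007 and 856 in NC, 634 and 1044 with DZNep, 716 and 880 with Valproate), so the sums say little of the others. T read 28 and 22 in NC, 20 and 11 with DZNep and 71 and 28 with Valproate. It read 118 and 30 with Chaetocin and 125 and 36 with UNC0379, and was called with no compound. Eomes was called higher with DZNep and Bromosporine. Primitive endoderm markers summed to 454 and 364 in NC, 467 and 739 with DZNep and 417 and 554 with Valproate. Of these, Pdgfra and Dab2 were called higher and Gata4 lower (156 and 154 in NC, 35 and 61) with DZNep, and Pdgfra was called higher with Valproate. The summed value of the fibroblast markers was 58 and 810 in NC, 935 and 1056 with DZNep and 899 and 1424 with Valproate, with Dcn at 0 in all 22 libraries. Much of these sums was Col3a1, which changed greatly from library to library within groups (NC 4 and 743, IOX1 3 and 622, MS023 431 and 4). It read 509 and 716 with DZNep and 307 and 722 with Valproate. Col1a1 (24 and 24) and Thy1 (12 and 11) hardly differed between the NC libraries. Of these fibroblast markers, Col1a1 and Thy1 were called higher with DZNep. Thy1 and Lum (listed at 0 in both NC libraries, 197 and 331 here) were called higher with Valproate, and Col1a1 was called lower with Bromosporine. Lum also read 346 in CPTH2 replicate 1, and its Valproate call was lost without any 1 library (limma adjusted p from 0.0596 to 0.0673). Whether cells of these other types had a part in the changes of Lgr5, Lef1, Sp5, Rnf43 and Cdx1 was not tested.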

How the data were processed

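RNA-seq was measured in 22 libraries of E14 ESCs, grouped by the treatment label (10 compounds and NC, 2 libraries each). Per the labels, mRNA was enriched on oligo-dT beads, and the submitters' processing notes name bcl2fastq, Bowtie2 2.2.5, RSEM and mm10. The deposited values are scores: read counts that the authors normalized with EDASeq and rounded to whole numbers, taking the study's methods, which do not mention the compounds, to cover these libraries. The methods describe RSEM and TEtranscripts counting, and which gave this table is not stated. Normalization of this kind masks how deeply each library was sequenced, and a shift common to most genes would not show. A second table held the authors' means and was not used.

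Values were analysed as log2(value + 1), a scale that understates the change of low genes, in R 4.3.3 with limma 3.58.1 (lmFit, eBayes with trend, 11 group means, 11 residual degrees of freedom). Count tests were not run because the values are normalized. Genes with at least 10 in at least 2 libraries were tested (17275 of 18487), and adjustment was within each contrast. All p-values are two-sided. The thresholds follow the study's methods. The code was tested on simulated data. Tables and figures were made with Python 3.11.15, pandas 2.3.3 and matplotlib 3.10.9. All columns matched a sample title (0 unmatched). Gene positions are from GENCODE on mm10.

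The 10 genes, the gene lists and the compounds compared directly were chosen with earlier results of these data known. All 10 genes are named. Of the other pathway lists, genes called with at least 1 compound are named, and for likeness the 3 genes with the highest correlation to each called member. Alternatives were another pseudocount, no filter, each compound fitted with NC alone, the replicate number as a term, rescaling by median ratios, another reference and leaving out each library.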

Additional observations from a re-analysis of the deposited data

How the results depend on the processing

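Of 143 counts of called members recomputed under the alternatives, 124 stayed within 1.5 times the reported count and 19 did not, and the cause was not tested. A reported count of 0 that stayed at 0 is among the 124, as were most counts for the compounds with no call. The 124 therefore overstate how stable the counts above 0 were. Leaving out 1 library at a time gave 1 to 3 called members with DZNep (4 reported; 2 without NC replicate 1, 1 without DZNep replicate 1, 2 without DZNep replicate 2), 2 with Valproate (3 reported), 4 to 6 in the F-test, 1 to 4 between DZNep and Valproate, 1 to 2 between DZNep and Bromosporine and 1 to 2 between Valproate and Bromosporine. Lgr5 is not tested without a DZNep library, which lowers some of these counts by construction. A fit of only the DZNep and NC libraries, with fewer degrees of freedom, called 2 members. With the mean of the other 9 compounds as reference, 1 member was called with Bromosporine and 3 with MS023. Shares over all genes are not given for these alternatives, so their counts cannot be set against all genes. The log2 change of Sp5 with MS023 turned from -0.08 to 0.58 without MS023 replicate 2 and was -0.74 without MS023 replicate 1.

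With the replicate block (the replicate number as a term), 1 member each was called with Bromosporine (Cdx1), Chaetocin (Sp5), IOX1 (Cdx1) and MS023 (Notum), where 0 were reported, and 8 passed the F-test. Axin2 with Valproate (limma adjusted p = 0.00376) and Nkd1 with DZNep (0.00345) were also called. Over all genes the block called 6.88% with Bromosporine, 0.203% with Chaetocin, 1.26% with IOX1 and 2.8% with MS023. It called 8.61% with Valproate and 15.1% with DZNep, and the lowest share was 0.00579%. In the main fit these shares were smaller, so the block added calls over all genes and not only among the members. For the F-test with the block no share over all genes is given. Deviations from the group means of same-numbered libraries correlated by 0.0535 to 0.298 (median 0.196), over 0.1 in 51 of 55 pairs of groups and over 0 in all 55. All 22 libraries correlated better on average with their own number, but the 2 deviations of a group mirror each other. In the block fit, replicate 2 differed from replicate 1 at 4.04% of all genes, including Cdx1 (log2 difference 1.09, limma adjusted p = 0.00143). Below the fold threshold, adjusted p was also under 0.05 for Notum (0.000536), Znrf3 (0.000576), Nkd1 (0.00225), Axin2 (0.0037), Sp5 (0.0222), Tcf7 (0.0259) and Rnf43 (0.0428). The labels do not say what the numbers stand for, so they were not taken as pairs. The SEs of the main fit contain this difference.

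Each group held 2 libraries, the median SE of a log2 change was 0.53 for Rnf43, 0.56 for Nkd1 and 0.87 for Cdx1, and depth was unknown, so no counting error is given for a value of 0.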
